A study of Mus musculus with 6 samples.

Results

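The vacuolar proton pump (V-ATPase) was described through 10 of its subunit transcripts in morula-like aggregates exposed to perfluorooctanoic acid (PFOA) or to vehicle. The 10 were taken by symbol from a table of 18388 genes, which writes them in upper case: ATP6V1A, ATP6V1B2, ATP6V1C1, ATP6V1D, ATP6V1E1, ATP6V1F, ATP6V1G1 and ATP6V1H of the V1 sector, and ATP6V0B and ATP6V0D1 of the V0 sector. They are written below as mouse symbols (Atp6v1a and so on). All 10 were found, and all 10 were among the 11876 genes tested, those with a mean of at least 1 FPKM (fragments per kilobase of transcript, scaled to the mapped fragments of a library). The set was drawn up because Atp6v1f had one of the smallest p-values of the same PFOA comparison (rank 9 of 11876), so its differences between PFOA and DMSO are given as a description and support nothing by themselves. The aggregates are clusters grown from mouse expanded pluripotent stem cells as a model of the compacting embryo, kept first in N2B27LCDM medium and then in an induction medium, at 37 °C under 5% CO2 and 20% O2. The 3 control libraries received the solvent DMSO and the 3 treated libraries PFOA, a persistent fluorinated surfactant. The sources used here do not give strain, dose or exposure time. Nothing in the labels ties the replicates to separate cultures, so a p-value reflects the spread among these 6 libraries alone, and that spread may be technical.

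The V-ATPase is a rotary motor in the membranes of lysosomes, endosomes and the Golgi. Its cytosolic V1 sector splits ATP in a ring of alternating A and B subunits, and the membrane V0 sector carries protons through a ring of small proteolipids. The central stalk (D, F and d) passes rotation from one to the other, while the peripheral stalks (E and G, held by C, H and a) keep the catalytic ring from turning with it. In embryos and stem cells the pump acidifies the organelles in which endocytosed protein is broken down, and on the lysosome it takes part in amino acid sensing by mTORC1.

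The libraries held transcripts of the pluripotency factors Pou5f1, Sox2 and Nanog, with means of 979, 140.3 and 277 FPKM in DMSO and 885, 140 and 265 in PFOA. Whether the cells were in the expanded state or at a morula-like stage was not tested. The FPKM of a library summed to between 641975 and 657239 in DMSO and to between 585739 and 630644 in PFOA, lowest in PFOA 1. Read depth is unknown, because the deposited values are FPKM. In bulk RNA, fewer cells of a type and less RNA per cell cannot be told apart.

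Every one of the 10 subunits was well expressed, within a narrow band of per-length levels. The DMSO means ran from 39.5 ± 1.63 FPKM for Atp6v1h to 153.92 ± 2.15 for Atp6v1f (SD, n = 3), a 3.9-fold range, and even the lowest lay above 85.9% of all genes of the table. Atp6v1f, of the central stalk, was the highest, with 151.44, 155.03 and 155.29 FPKM in DMSO 1 to 3. Atp6v1e1, of the peripheral stalk, followed with 97.07, 95.48 and 96.09. These first places were clear of the next subunit in every DMSO library.

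Subunits of the catalytic and membrane parts came next. Atp6v0b, a proteolipid of the membrane ring, had 82.56, 75.48 and 78.75 FPKM in DMSO 1 to 3, and its range overlapped that of Atp6v1b2, the nucleotide-binding B subunit, at 78.08, 76.65 and 81.73. Below them, in order of the mean, stood Atp6v1d of the central stalk (71.74 to 75.66), Atp6v0d1, which joins that stalk to the proteolipid ring (67.25 to 71.35), and Atp6v1g1 of the peripheral stalk (69.2 to 70.53). Atp6v0d1 and Atp6v1g1 overlapped. The catalytic A subunit Atp6v1a (48.23 to 50.47) overlapped with Atp6v1c1 (45.61 to 49.04), which links stalk and membrane sector. Atp6v1h, a regulatory subunit, was lowest at 38.54, 38.5 and 41.34. In PFOA the order of the means was the same for Atp6v1f and Atp6v1e1 at the top and for Atp6v1a, Atp6v1c1 and Atp6v1h at the bottom, whereas Atp6v0b stood 6th in place of 3rd. Such levels depend on the transcript length used for FPKM, and 12.5% of the 50-nt words of Atp6v1f and 19.2% of those of Atp6v1g1 also occur in transcripts of other genes.

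**Figure D1:**
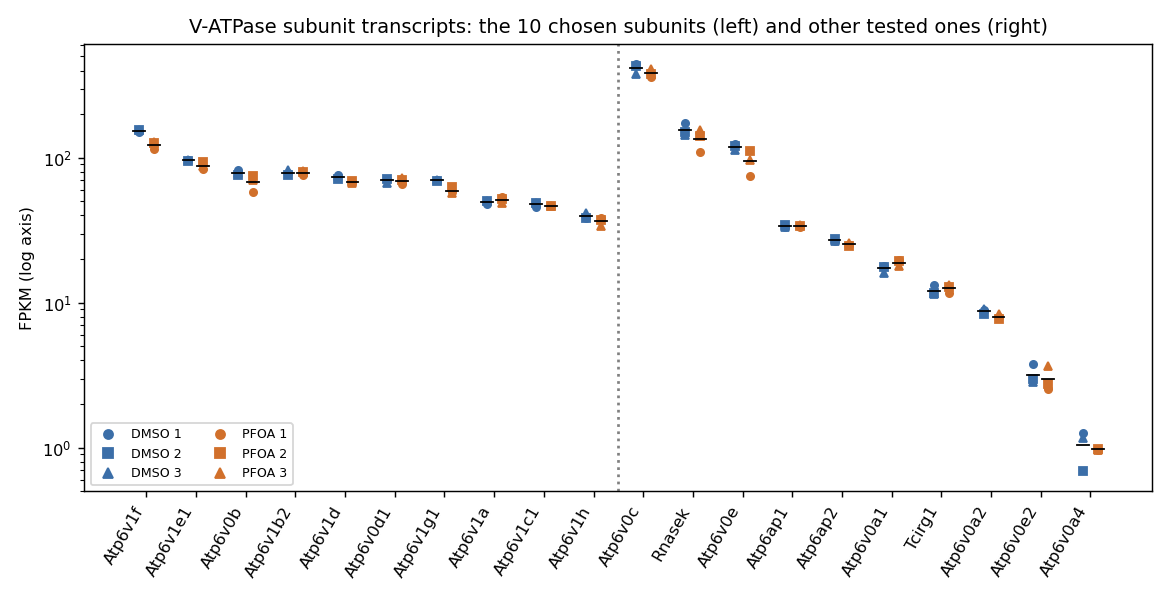
FPKM (log axis) of the 10 chosen V-ATPase subunit transcripts, left of the dotted line, and of 10 other tested subunits and accessory proteins, right of it; each point is a library and each bar a group mean (n = 3). Atp6v1f is the highest of the 10 and Atp6v0c, at 416 FPKM in DMSO, the highest of all.

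For B, C, G, d and e among the subunits encoded by several genes, a single paralogue supplied nearly all transcript. Subunit E was not assessed, because Atp6v1e2 was not found. In DMSO, Atp6v1b2 made up 99.99% ± 0.0212 of the summed B subunit FPKM, and in PFOA 99.99% ± 0.0218 (SD, n = 3 libraries a group), with the kidney-type Atp6v1b1 at 0 to 0.03 FPKM. Atp6v1c1 made up 99.19% ± 0.208 and 99.43% ± 0.324 of the C subunit, and Atp6v1g1 99.32% ± 0.165 and 99.27% ± 0.124 of the G subunit. Atp6v0d1 was 99.96% ± 0.00147 and 99.95% ± 0.0193 of the d subunit, with the osteoclast-type Atp6v0d2 at 0.03 to 0.05 FPKM. Of those assessed, the membrane subunit a was the exception: Atp6v0a1 supplied 44.0% ± 1.68 in DMSO and 46.7% ± 2.42 in PFOA, Tcirg1 (a3) 30.84% ± 0.849 and 31.1% ± 1.94, and Atp6v0a2 22.5% ± 1.3 and 19.8% ± 0.909. The Atp6v0a2 share was 21.62, 21.86 and 23.99% in DMSO 1 to 3 against 19.75, 18.93 and 20.75% in PFOA 1 to 3, so the groups of this share did not overlap (no test was run on it).

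Promoter sequences from RefSeq (GRCm38.p6) were matched for 6 of the 10 genes: Atp6v0b, Atp6v0d1, Atp6v1a, Atp6v1d, Atp6v1e1 and Atp6v1f. Each runs from 250 bases before to 50 bases after the annotated start. They were searched for CACGTG, the E-box core to which MYC with MAX and also the lysosomal regulators TFEB and TFE3 bind, and for TCACGTGA, which contains it and is the core of the motif found near lysosomal genes; both read the same on either strand. CACGTG stood in 3 of the 6 promoters and TCACGTGA in 2, against 7.15% and 0.97% of all 32851 promoters in the table. The 3 promoters that hold it are shown, with CACGTG in capitals, together with that of Atp6v1f, the gene with the largest difference of the 10, in which it is absent and no letters are capital. Atp6v0b lies at chr4:117887280-117887579 (minus strand), Atp6v0d1 at chr8:105566015-105566314 (minus), Atp6v1a at chr16:44139210-44139509 (minus) and Atp6v1f at chr6:29467533-29467832 (plus).
Atp6v0b: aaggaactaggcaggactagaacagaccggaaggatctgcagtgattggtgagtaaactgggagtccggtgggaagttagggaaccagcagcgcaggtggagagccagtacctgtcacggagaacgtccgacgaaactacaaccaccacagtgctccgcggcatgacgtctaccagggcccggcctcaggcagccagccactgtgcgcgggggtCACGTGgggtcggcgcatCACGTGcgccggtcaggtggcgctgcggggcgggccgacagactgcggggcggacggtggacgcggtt
Atp6v0d1: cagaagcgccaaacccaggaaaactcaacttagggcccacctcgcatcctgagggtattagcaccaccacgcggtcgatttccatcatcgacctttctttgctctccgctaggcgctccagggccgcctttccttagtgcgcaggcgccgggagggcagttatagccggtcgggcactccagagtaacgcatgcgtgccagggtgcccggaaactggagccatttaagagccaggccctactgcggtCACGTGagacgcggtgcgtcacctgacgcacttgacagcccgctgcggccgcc
Atp6v1a: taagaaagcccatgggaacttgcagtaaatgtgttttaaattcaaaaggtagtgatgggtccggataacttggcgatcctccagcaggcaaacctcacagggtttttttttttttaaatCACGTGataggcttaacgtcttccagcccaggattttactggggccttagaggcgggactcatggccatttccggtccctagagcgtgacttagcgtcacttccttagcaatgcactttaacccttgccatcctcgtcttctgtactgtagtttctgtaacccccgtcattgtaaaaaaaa
Atp6v1f: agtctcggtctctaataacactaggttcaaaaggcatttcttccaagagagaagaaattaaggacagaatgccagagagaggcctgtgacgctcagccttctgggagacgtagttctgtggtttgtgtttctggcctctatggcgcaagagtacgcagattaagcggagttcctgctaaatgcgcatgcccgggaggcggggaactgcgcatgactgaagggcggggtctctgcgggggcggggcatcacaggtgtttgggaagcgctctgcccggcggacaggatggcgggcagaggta

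Atp6v0b holds the E-box core at 2 places, whose first bases lie at −36 and −18 from the start, neither of them within TCACGTGA. In Atp6v0d1 the core begins at −3 and in Atp6v1a at −131, and in both it is flanked by T and A to give TCACGTGA. The windows of Atp6v1d, Atp6v1e1 and Atp6v1f do not hold these letters, which says nothing of more distant sequence. Of 18 promoters of the other subunits and accessory proteins 1 (5.56%) held CACGTG, that of Atp6v0e, a small membrane subunit, which holds TCACGTGA with the core beginning at position 4 after the start. Among promoters of assembly and regulation genes 3 of 12 held CACGTG, among those of Ragulator, Rag and mTORC1 genes 5 of 15, and among those of the transcription factors TFEB, TFE3, MITF and TFEC 0 of 9. Among promoters of lysosomal hydrolases and activators 11 of 34 held CACGTG, and among those of lysosomal membrane proteins 6 of 20. Of the 3 genes with the core, the PFOA and DMSO libraries overlapped for Atp6v1a and Atp6v0d1 and PFOA was below for Atp6v0b. Of the 3 without it, PFOA was below for Atp6v1f, Atp6v1d and Atp6v1e1. Over all tested genes every PFOA library was below in 13.7%. With a trend on transcript length removed, as described below, Atp6v0b and Atp6v1e1 overlapped as well and Atp6v0d1 was above. No test was run on these 6 genes, which come from a set chosen on this contrast.

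Every PFOA library was below every DMSO library for 6 of the 10 subunits, as for 13.7% of all tested genes. These were Atp6v1f and Atp6v1d of the central stalk, Atp6v1e1 and Atp6v1g1 of the peripheral stalks, Atp6v1h and the proteolipid Atp6v0b. The groups overlapped for the other subunit of the central stalk, Atp6v0d1, for Atp6v1c1 and for both subunits of the catalytic ring. None of these genes passed the adjusted threshold, and no test compared stalk with ring. Atp6v1f was 151.44, 155.03 and 155.29 FPKM in DMSO 1 to 3, against 114.37, 127.06 and 127.75 in PFOA 1 to 3. Every PFOA library was below every DMSO library, and PFOA 1 was the lowest. On the log2(FPKM + 1) scale its fold change was −0.32 (SE 0.048), and its mean was 153.92 ± 2.15 FPKM against 123.06 ± 7.53 (SD, n = 3 each; change −20.05%). Its partner in the central stalk, Atp6v1d, was 75.66, 71.74 and 74.64 in DMSO and 67.82, 69.16 and 67.29 in PFOA. Again the groups did not overlap, with a smaller log2 fold change of −0.12 (SE 0.036).

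Both genes of the peripheral stalks were also lower in each PFOA library than in any DMSO library. By their longest transcripts both fall among the genes from 1000 to under 1500 nt, of which 31.5% separated in that direction. Atp6v1g1 was 70.53, 69.2 and 69.8 FPKM in DMSO and 58.12, 63.32 and 56.8 in PFOA (log2 fold change −0.23, SE 0.046). Atp6v1e1 was 97.07, 95.48 and 96.09 in DMSO and 83.56, 93.06 and 87.59 in PFOA (−0.13, SE 0.044), where PFOA 2 came closest to the controls. Of the subunits that hold the stalks, Atp6v1h was 38.54, 38.5 and 41.34 in DMSO and 38.14, 37.1 and 33.96 in PFOA (−0.11, SE 0.053). The groups of Atp6v1h did not overlap, though PFOA 1 lay within 0.4 FPKM of the lowest control. Atp6v1c1 was 45.61, 48.41 and 49.04 in DMSO and 46.71, 46.69 and 46.69 in PFOA, inside the control range (−0.029, SE 0.039).

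The catalytic ring showed no separation. Atp6v1a was 48.23, 50.38 and 50.47 FPKM in DMSO and 53.32, 51.8 and 48.56 in PFOA, with PFOA 1 and 2 above and PFOA 3 within the controls (log2 fold change 0.042, 95% confidence interval −0.059 to 0.14). Atp6v1b2 was 78.08, 76.65 and 81.73 in DMSO and 76.65, 79.48 and 80.93 in PFOA (0.0038, 95% confidence interval −0.087 to 0.094). Relative to Atp6v1a in the same library, Atp6v1f was 3.14, 3.08 and 3.08 times as abundant per length in DMSO 1 to 3, against 2.14, 2.45 and 2.63 times in PFOA 1 to 3. The ratio of Atp6v1b2 to Atp6v1a was 1.59 ± 0.056 in the controls and 1.55 ± 0.11 under PFOA (SD, n = 3 each). By the longest annotated form, Atp6v1f and Atp6v1a are the shortest and the longest of the chosen subunits (806 and 4234 nt). That form of Atp6v1b2 has 2825 nt. By the median over annotated coding forms, Atp6v1f and Atp6v1a are close, at 703 and 894 nt. With a trend on the longest length removed, as described below, the log2 fold changes of Atp6v1f and Atp6v1a were −0.16 and 0.016. With the median length in its place they were −0.25 and 0.11.

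In the membrane sector the groups separated for Atp6v0b and overlapped for Atp6v0d1. Atp6v0b was 82.56, 75.48 and 78.75 FPKM in DMSO and 58.41, 75.31 and 70.16 in PFOA (log2 fold change −0.22, SE 0.084). Its groups did not overlap, but PFOA 2 was only just below DMSO 2, and PFOA 1 stood far under the rest. Atp6v0d1 was 71.35, 71.32 and 67.25 in DMSO and 66.21, 70.35 and 72.23 in PFOA, on both sides of the controls (−0.0081, 95% confidence interval −0.11 to 0.094).

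Across the 10, 8 had a lower mean log2 value in PFOA and 2 a higher one, with a median log2 fold change of −0.12, against −0.0065 over all tested genes, of which 52.4% were lower. Under quantile normalization 6 were lower and the median was −0.066, against 46.3% and 0.010 over all tested genes. In 6 of the 10 every PFOA library was below every DMSO library, as in 13.7% of all tested genes, and in 0 every PFOA library was above, as in 13.5%. None of the 10 (0) passed limma at a Benjamini-Hochberg adjusted p of 0.05 over all genes, a threshold that 0.00842% of genes (1 of 11876) passed. At an unadjusted p under 0.05 in limma 5 were lower (Atp6v1d, Atp6v1e1, Atp6v1f, Atp6v1g1 and Atp6v0b) and 0 higher, against 12.5% and 8.56% of all genes. Since the set was chosen on this contrast, nothing is read from these counts. The adjusted p of Atp6v1f and of Atp6v1g1 was 0.11 in limma. Without PFOA 2 both passed (limma, adjusted p = 0.0456 and 0.0441), in a fit in which 91 genes were called lower and 3 higher. The log2 fold change of Atp6v1f was −0.27 without PFOA 1, the library with the lowest FPKM sum, and −0.34 without DMSO 1 and DMSO 2, which leaves DMSO 3 as the lone control. The summed level of the 10 was 759.1, 752.2 and 764.4 FPKM in DMSO 1 to 3, against 663.3, 713.3 and 692 in PFOA 1 to 3, without overlap. As a share of all FPKM it was 0.1159, 0.1144 and 0.1191% against 0.1132, 0.1131 and 0.111%, also without overlap.

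**Figure D2:**
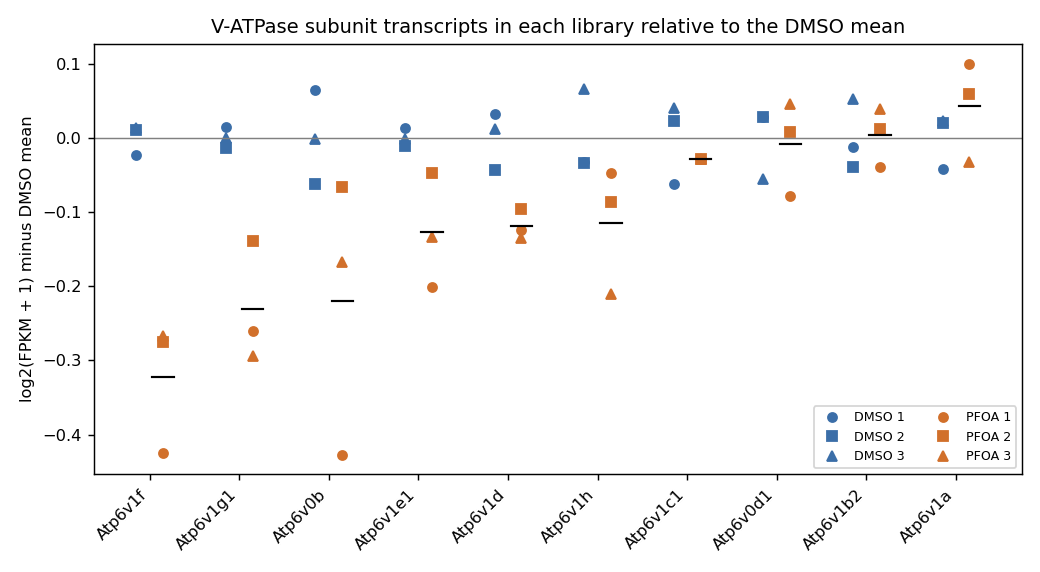
log2(FPKM + 1) of the 10 subunit transcripts in each library, minus the DMSO mean of the gene; points are libraries, bars the PFOA mean (n = 3), and genes are ordered by fold change. Atp6v1f, Atp6v1g1 and Atp6v0b lie lowest in PFOA, at −0.32, −0.23 and −0.22, and the catalytic subunits Atp6v1a and Atp6v1b2 lie around 0.

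Transcript length moved with these differences. The longest coding transcript is 806 nt for Atp6v1f, 1000 nt for Atp6v0b, 1135 nt for Atp6v1g1 and 1312 nt for Atp6v1e1, and 2825 nt for Atp6v1b2 and 4234 nt for Atp6v1a. Over the 10 genes Spearman's rho between length and log2 fold change was 0.83, and over all 11541 tested genes with a length it was 0.598; genes share the same 6 libraries and are not independent replicates. The median log2 fold change was −0.16 for the 693 tested genes under 1000 nt, −0.11 for the 1057 genes from 1000 to under 1500 nt and 0.066 for the 3810 genes of at least 4000 nt. In these classes, in turn, every PFOA library was below every DMSO library for 32.5%, 31.5% and 3.36% of genes. Within its length class, Atp6v1f had 13.3% of genes below it, Atp6v1g1 12.7% and Atp6v0b 15.3%. Atp6v1e1, with 42.8% of its class below it, stood near the middle. Atp6v1d, at 3667 nt, had 7.4% of its class below it. The longest annotated form need not be the one expressed.

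With a trend on that length removed from each library, the median of the 10 was −0.038 and 6 of them were lower, against 0.0022 and 48.9% over all tested genes. The log2 fold change of Atp6v1f was then −0.16 (SE 0.031) and that of Atp6v1g1 −0.11 (SE 0.043). Atp6v1d stayed at −0.13 (SE 0.033), while Atp6v1e1 was at −0.018 and Atp6v0b at −0.082. The groups did not overlap for 3 lower subunits (Atp6v1d, Atp6v1f and Atp6v1g1) and for 1 higher, Atp6v0d1 (0.077, SE 0.031), where 9.47% and 10.7% of all genes separated in those directions. Set against its DMSO mean, Atp6v1f was then at −0.033, −0.0061 and 0.039 in DMSO 1 to 3, and at −0.16, −0.19 and −0.14 in PFOA 1 to 3, so PFOA 1 no longer stood below the other treated libraries. None of the 10 (0) passed limma's adjusted threshold in that fit. With the median length in place of the longest, the log2 fold change was −0.25 for Atp6v1f and −0.16 for Atp6v1g1. Atp6v1d and Atp6v0b were each at −0.15 and Atp6v1e1 at −0.059.

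**Figure D3:**
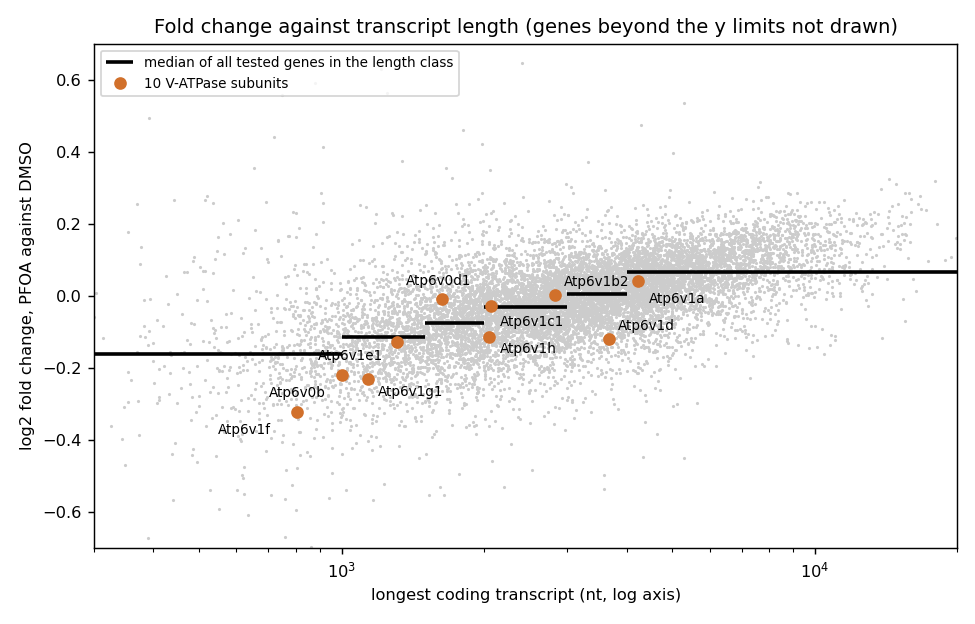
log2 fold change between PFOA and DMSO against the longest coding transcript (log axis) for tested genes (grey), the median of each length class (black bars, whose last class runs past the axis) and the 10 V-ATPase subunits (orange). Short transcripts are lower in general, and Atp6v1f (806 nt, −0.32) and Atp6v1d (3667 nt, −0.12) lie below the medians of their classes, −0.16 and 0.0064.

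Of 17 subunits and accessory proteins listed outside the 10, 16 were found and 10 tested. Of these 7 were lower and 3 higher, with a median log2 fold change of −0.085, and 0 passed limma's adjusted threshold. In 2 of the 10 tested every PFOA library was below every DMSO library and in 0 above, against 13.7% and 13.5% of all tested genes. At an unadjusted p under 0.05 in limma 1 was lower and 0 higher, against 12.5% and 8.56%. The lower gene was Atp6v0e, at 123.76, 121.49 and 113.58 FPKM in DMSO and 75.2, 111.17 and 97 in PFOA (log2 fold change −0.35, SE 0.12, limma adjusted p = 0.17). Every PFOA library was below the controls, PFOA 1 by far the most. With the trend on the longest length removed, 6 of the 10 tested were lower and their median was −0.018. Atp6v0e was then at −0.34 (SE 0.12) and Atp6v0a2 at −0.18 (SE 0.054), both further from 0 than Atp6v1f in that fit (−0.16). The main proteolipid Atp6v0c, the most abundant subunit, was 441.39, 429.18 and 375.94 in DMSO and 361.73, 377.62 and 412.47 in PFOA, with overlap, and 32.5% of its 50-nt words occur in its pseudogenes.

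Subunit a, which forms the path of the protons with the ring, is encoded by several paralogues. Atp6v0a1 averaged 17.3 ± 1.04 FPKM in DMSO against 18.9 ± 0.923 in PFOA, Atp6v0a2 8.81 ± 0.343 and 8.03 ± 0.349, and Tcirg1 12.1 ± 0.953 and 12.6 ± 0.862 (SD, n = 3 each), each with overlapping groups. Of the accessory proteins, Atp6ap1 (Ac45) was 33.6 ± 0.574 and 33.9 ± 0.43, whereas Atp6ap2, the prorenin receptor, was 26.46, 27.73 and 26.87 in DMSO and 25.2, 24.8 and 25.98 in PFOA, without overlap (log2 fold change −0.090, SE 0.040, limma adjusted p = 0.24). Rnasek was 156 ± 16.3 and 136 ± 23.5, and 97.9% of its words lie in another annotated gene. Atp6v0e2 and Atp6v0a4 were low, at 3.19 ± 0.522 and 1.04 ± 0.308 in DMSO, and Atp6v1c2, Atp6v1g2, Atp6v1g3 and Atp6ap1l were under 1 FPKM in each library.

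Genes that assemble or regulate the pump differed in both directions. Of 12, 11 were tested, 6 lower and 5 higher (median −0.071), and 0 passed limma's adjusted threshold. At an unadjusted p under 0.05 in limma 1 was lower and 1 higher, against 12.5% and 8.56% of all tested genes. Dmxl1, of the complex that rejoins V1 to V0, was 6.52, 6.08 and 6.56 FPKM in DMSO and 8.12, 7.5 and 6.84 in PFOA (log2 fold change 0.20, limma adjusted p = 0.17). Tmem9 was 24.09, 22.22 and 20.15 against 19.38, 19.42 and 19.69 (−0.17, adjusted p = 0.18 in limma). The V0 assembly factor Tmem199 was 26.2, 25.61 and 25.91 against 23.72, 24.98 and 24.29 (−0.087). Dmxl1 has a transcript of 12247 nt, Tmem199 one of 1347 nt.

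On the lysosomal surface the pump works with Ragulator and the Rag GTPases, which recruit mTORC1. Of 16 such genes 10 were lower and 6 higher (median −0.055), and 0 passed limma's adjusted threshold. At an unadjusted p under 0.05 in limma 3 were lower and 2 higher, against 12.5% and 8.56% of all tested genes. Lamtor2 was 112.99, 116.37 and 101.85 FPKM in DMSO and 85.35, 88.04 and 90.07 in PFOA (log2 fold change −0.32, limma adjusted p = 0.11), a difference of the size seen for Atp6v1f at a similar transcript length of 668 nt. Lamtor5 was 42.0 FPKM in DMSO and 38.2 in PFOA, and Lamtor4 21.8 and 19.1.

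No transcription factor of lysosomal genes and no other lysosomal gene on the lists passed the adjusted threshold. Tfeb was 24.46, 22.53 and 21.88 FPKM in DMSO and 19.03, 19.17 and 21.63 in PFOA (log2 fold change −0.19, limma adjusted p = 0.16), without overlap, and Tfe3 was 57.0 and 55.1 on average. Mitf and Tfec had means under 1 FPKM and were not tested. Of 35 tested lysosomal hydrolases and activators 20 were lower and 15 higher (median −0.030), and of 21 lysosomal membrane proteins 12 were lower and 9 higher (median −0.036). With the trend on the longest transcript length removed, 19 and 6 were lower and the medians were −0.0052 and 0.015. In either list 0 passed limma's adjusted threshold. At an unadjusted p under 0.05 in limma 5 hydrolases were lower and 0 higher, and 0 membrane proteins were lower and 1 higher. Over all tested genes 12.5% were lower and 8.56% higher at that p. Gla was 5.76 FPKM in DMSO and 5.05 in PFOA, and Hexa 54.9 and 51.3, both without overlap. Among membrane proteins Igf2r, a receptor that carries hydrolases to the lysosome, was 21.19, 21.11 and 22.64 in DMSO and 25.51, 24.46 and 23.03 in PFOA (0.16, limma adjusted p = 0.15). The tetraspanin Cd63 was 218.4, 219.1 and 226.02 against 160.77, 223.71 and 191.79, and Cln3 20.6 and 18.9 on average.

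**Figure D4:**
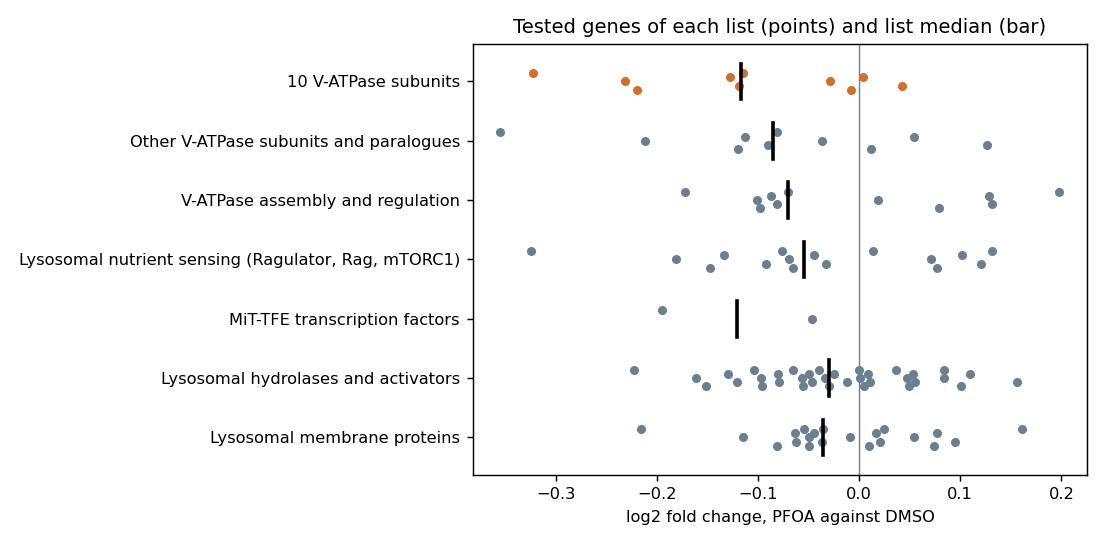
log2 fold change between PFOA and DMSO of the tested genes in each list (points) with the list median (bar). The 10 V-ATPase subunits have a median of −0.12, the hydrolases −0.030 and the lysosomal membrane proteins −0.036. With the trend on the longest transcript length removed (not drawn), these medians are −0.038, −0.0052 and 0.015.

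Over the 6 libraries, Pearson's r with Atp6v1f on the log2(FPKM + 1) scale was 0.91 for Atp6v1e1 and for Atp6v1g1, 0.87 for Atp6v1d and 0.84 for Atp6v0b, and it was −0.56 for Atp6v1a. The closest of all tested genes were Hmgn2 (r = 0.997), Mmp13 (0.996), Rdh14 (0.995), Mex3d (0.993) and Fis1 (0.991). Hmgn2, a nucleosome-binding protein, was 134.8, 135.2 and 135.35 FPKM in DMSO and 118.67, 125.36 and 124.27 in PFOA. These points share 6 libraries and the difference between the groups, and 163 genes had an r above 0.95.

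Markers of other cell types were summed for comparison. The 10 tested fibroblast markers of 14 summed to 36.9, 35.6 and 32.1 FPKM in DMSO 1 to 3, against 29.4, 31.3 and 31.9 in PFOA 1 to 3; 7 were lower and 3 higher (median −0.053), while Lum and Fap stayed at 0.05 to 0.23. Twist2 was 1.95 against 1.11 on average and Dcn 7.59 against 6.24, both without overlap, while Fbn1, too low to be tested, was 0.79 against 0.947 and above in every PFOA library. The fibroblast sum was lower in each PFOA library than in any DMSO library, as were the sums of the pump subunits and of all genes. Over all genes a library summed to 641975 to 657239 FPKM in DMSO and to 585739 to 630644 in PFOA. No marker sum was taken as a share of all FPKM. The highest 2 fibroblast genes, Thy1 and Dcn, were then left out, a choice made after their values were seen. The fibroblast sum was then 19.6, 19.4 and 17.9 FPKM in DMSO against 17, 17.7 and 18.6 in PFOA, with overlap. The part of these cells in the result was not tested. Of 7 trophectoderm markers 6 were tested, 3 lower and 3 higher (median −0.035), with sums of 510.3 to 582.5 FPKM in DMSO and 494.5 to 563.9 in PFOA. Krt18, Krt8 and Tfap2c averaged 270, 223 and 26.8 FPKM in DMSO. Cdx2, Eomes and Gata3 averaged 7.06, 5.05 and 4.05, and Elf5, not tested, was at 0.03 to 0.1. Of 7 primitive endoderm markers 2 were tested, 1 lower and 1 higher (median −0.014). These were Gata4 and Dab2, with means of 1.77 and 3.76 FPKM in DMSO, while Sox17 and Foxa2 were under 0.5. The 14 pluripotency markers were 7 lower and 7 higher (median 0.019). Their sums were 5126 to 5350 in DMSO and 4474 to 4971 in PFOA, without overlap, as for the sums of all genes. Dppa5a, with a transcript of 619 nt, had the largest part, with means of 2239 FPKM in DMSO and 1952 in PFOA.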

How the data were processed

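The deposited table gives FPKM per gene symbol and library, which the authors wrote to 2 decimals, with 1 column for each of 6 libraries. Per the submitters' processing notes, HISAT2 2.0.4 and Bowtie2 2.2.5 were used with GRCm39; for what step each served, how reads were counted and on which annotation is not given in the sources used here. Because FPKM is not a count and whole reads were not recovered from the low values, no count test was run.

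The log2(FPKM + 1) values of every gene averaging 1 FPKM or more, which left out 6512 genes, were compared in limma 3.58.1 under R 4.3.3, using an intensity trend, two-sided, adjusted by Benjamini-Hochberg over all 11876 tested genes. Fold changes on this scale understate the change of low genes. The fit was tested on simulated data. Groups and replicate numbers come from the titles. The V-ATPase genes and the lists were chosen with earlier results of these data known. All 10 subunits were named whatever their values; from other lists, the genes past the threshold or else the 3 with the smallest p; and the 5 genes most correlated with Atp6v1f. A gene that this rule names is not reported here. Names added afterwards are marker genes, and Atp6v0c and its paralogues as subunits.

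GENCODE M21, on another build, gave transcript lengths, GC content and shared 50-nt words, and 97.2% of tested genes had a length. Length trends were removed per library by lowess with a span of 0.3. Alternatives covered pseudocount, filters, normalization, variance model, block, weights, left-out libraries and trends on length and GC content; the trends on median length and on GC content were chosen after seeing the data.

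The correlations of same-numbered deviations from the group means were −0.107, −0.0095 and −0.138. Those of differently numbered libraries ran from −0.065 to 0.148. Deviations from means of 3 libraries cannot show whether the libraries were handled in pairs.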

Additional observations from a re-analysis of the deposited data

How the results depend on the processing

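Of 18 alternatives, 17 called 0 of the 10 V-ATPase subunits in limma, and leaving out PFOA 2 called 2, so leaving out 1 library at a time gave 0 to 2; other subunits gave 0 throughout. The median of the 10 was −0.12 and moved to −0.066 under quantile normalization, to −0.038 after removal of the longest-transcript trend and to −0.068 with that on the median length removed. Leaving out DMSO 1 and DMSO 2 together gave −0.13, and leaving out 1 library at a time −0.13 to −0.088. Between 6 and 9 of the 10 were lower in every alternative.

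Atp6v1f ranged from −0.35 (without PFOA 3) to −0.16 (longest length removed) and passed only without PFOA 2. The sign of Atp6v1b2, Atp6v0d1 and Atp6v1c1, near 0 in the first place, turned. Under quantile normalization Atp6v1c1 was 0.013 and Atp6v0d1 0.042. With the longest length removed they were 0.026 and 0.077, and with the median length 0.035 and 0.031, where Atp6v1b2 was −0.0052. With GC content removed Atp6v1b2 was −0.0032 and Atp6v0d1 0.0066. Without DMSO 1 and DMSO 2, DMSO 3 being the sole control and assumed to vary like the others, they were −0.048 and 0.048. With 1 library left out, Atp6v1b2 ranged from −0.016 (without DMSO 2) to 0.030 (without DMSO 3) and Atp6v0d1 from −0.036 (without DMSO 3) to 0.027 (without PFOA 1).

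Over all genes, 1 was called lower and 0 higher. The lower count was 0 without the filter, without the variance trend, with the replicate block, without DMSO 1 and DMSO 2 and with the longest length removed, and 2 with library weights or with GC content removed. Leaving out 1 library gave 0 to 91 lower and 0 to 13 higher: 39 and 13 without DMSO 3, and 91 and 3 without PFOA 2. With the replicate block, a pairing by number that was not established, 0 of the 10 subunits were called and the median was −0.12. The adjusted p of Atp6v1f was then 0.17 (limma). The cause of these changes was not tested. Depth is unknown, so the precision of low paralogues could not be given.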
